A study of Rattus norvegicus with 8 samples.

Results

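Superoxide dismutases, catalase, peroxiredoxins, thioredoxin reductases and metallothionein belong to the first lines of defence against superoxide and hydrogen peroxide, and Txnip binds and inhibits thioredoxin. Here 10 genes for such proteins (Sod1, Sod2, Sod3, Cat, Prdx1, Prdx3, Txnrd1, Txnrd2, Txnip and Mt2A) were followed in isolated rat hearts perfused with doxorubicin. Every probe set whose only gene symbol in the platform annotation is one of these names was taken. This gave 10 probe sets for 9 genes, of 31042 probe sets tested and 14217 genes measured. Prdx1 gave none, because its probe set is annotated with a second gene as well, and it was not analysed here. All 10 probe sets lay above the level of the dimmest 25% of probe sets (a mean of 4.16 log2), which is a rank and not a test of detection.

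The hearts came from male Wistar rats and were perfused for 2 h through the aorta in a Langendorff apparatus without recirculation, either with 2 µM doxorubicin (4 hearts) or without drug (4 hearts). The labels give no transgene, deletion or other agent in either group and describe the hearts of a group as biological replicates. Each heart had its own Affymetrix array, and the values are log2 of the deposited RMA intensity, which is relative and not a number of molecules. An excised heart perfused in this way has no circulating blood, and the RNA is of whole tissue, so fewer cells of a type and less RNA per cell cannot be told apart.

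Doxorubicin is an anthracycline whose quinone can be reduced by 1 electron and can pass that electron to oxygen, which gives superoxide. Superoxide dismutases turn superoxide into hydrogen peroxide, and catalase, glutathione peroxidases and peroxiredoxins remove the peroxide. Thioredoxin reductases use NADPH to keep thioredoxin reduced, which in turn recycles the peroxiredoxins. Txnip binds reduced thioredoxin and limits glucose uptake, and metallothioneins are small cysteine-rich proteins that bind zinc and copper and scavenge radicals. Compared with liver, heart muscle is known for low catalase activity, and overexpression of catalase or metallothionein in mouse heart is known to lessen anthracycline injury.

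No member passed the test in either direction at a limma adjusted p under 0.05, which 2.21% of all probe sets did (687 of 31042), 1.52% downward and 0.689% upward. At an unadjusted p under 0.05, 3 of the 10 probe sets were lower in doxorubicin hearts (Txnip, Mt2A and the brighter Txnrd1 probe set) and none was higher. For all probe sets that share was 13.6% in either direction and 5.84% for lower values. The groups did not separate fully for any member. Of all probe sets 8.55% had groups that did not overlap, and with 10 probe sets a count of 0 is near that share. By the brightest probe set of each gene, the 9 members had a median difference of -0.022 log2 (doxorubicin minus control), and all genes one of 0.0063. The median absolute difference was 0.083 log2 both for the 9 members and for all 14217 genes.

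**Figure D1:**
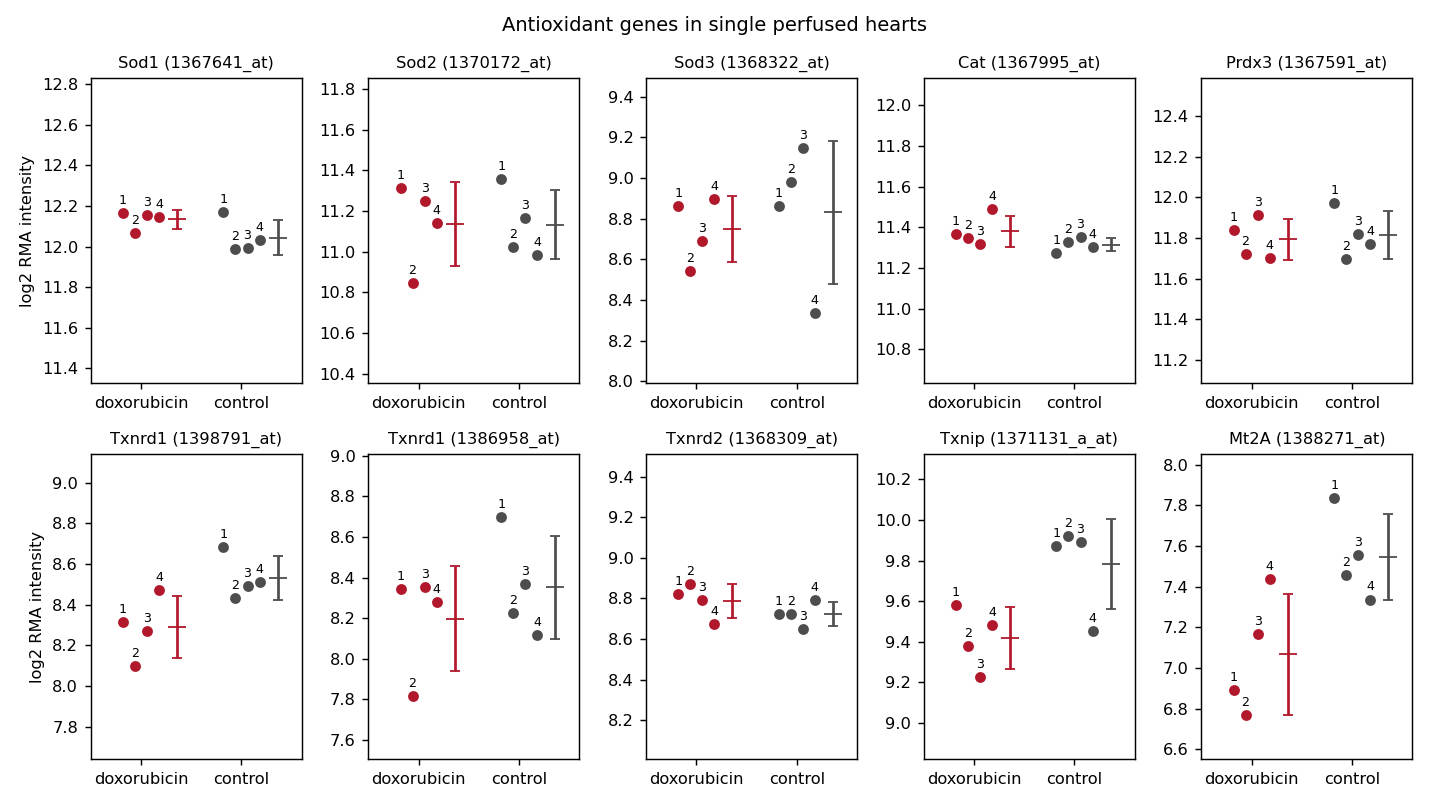
Log2 RMA intensity of the 10 probe sets (one panel each, every axis spanning the same number of log2 units) in single hearts, doxorubicin on the left and control on the right, numbered by replicate, with the mean and SD of 4 hearts beside them. The groups overlap in every panel, and Txnip, Mt2A and the brighter Txnrd1 probe set have the lowest doxorubicin values relative to control.

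The arrays were alike overall. Correlations across probe sets were 0.988 to 0.996 within groups and 0.985 to 0.993 between groups. The hybridization control level, the mean of 18 probe sets for added bacterial and phage transcripts, was 10.02 ± 0.08 log2 in doxorubicin and 10.32 ± 0.17 log2 in control arrays (SD, n = 4 each; difference -0.30, exact permutation p = 0.0286, two-sided, the smallest the design allows). Summed intensity of 6 cardiomyocyte markers, none of which passed, was 81641 to 85601 in doxorubicin and 82909 to 83734 in control hearts. Atrial tissue varied widely, with a summed intensity of the 4 atrial markers of 1441 to 20375 in doxorubicin and 1214 to 10284 in control hearts. Of all 37 listed markers of 8 cell types 35 were measured, and Tie1, an endothelial receptor gene, alone passed (higher by 0.34 log2, limma adjusted p = 0.0148). The endothelial markers had a median of -0.016 log2, with 2 above 0 (Tie1 and Tek, at 0.13) and 2 below (Kdr at -0.22 and Pecam1 at -0.16).

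The superoxide dismutases of the cytosol and of the mitochondrion stood at nearly the same level in both groups. Sod1, the copper and zinc enzyme of the cytosol, had log2 levels of 12.16, 12.07, 12.15 and 12.15 in doxorubicin hearts 1 to 4, against 12.17, 11.99, 11.99 and 12.03 in control hearts 1 to 4. All 4 doxorubicin hearts lay above the control mean, but control heart 1 was the highest of all 8. The difference was 0.09 log2 (SE 0.06, limma adjusted p = 0.606), and its 95% confidence interval of -0.05 to 0.22 reached at most a 1.17-fold rise. Sod1 was among the steadiest transcripts, with a pooled SD within groups of 0.068 log2, against a median of 0.13 over probe sets above the dim limit.

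Sod2, the manganese enzyme of the mitochondrial matrix, had log2 levels of 11.32, 10.85, 11.25 and 11.14 in doxorubicin hearts 1 to 4, against 11.36, 11.02, 11.16 and 10.98 in control hearts 1 to 4. The lowest heart was doxorubicin heart 2 and the highest control heart 1, so each group spanned nearly the range of the other. Sod2 differed by 0.0054 log2 (SE 0.12, limma adjusted p = 0.992), with a 95% interval of -0.25 to 0.26. The sign of so small a value turned when single hearts were left out, over a range of -0.054 to 0.10.

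Sod3 encodes the secreted dismutase, which binds the matrix around vessels. Its log2 levels were 8.86, 8.54, 8.69 and 8.90 in doxorubicin hearts 1 to 4, against 8.86, 8.98, 9.15 and 8.33 in control hearts 1 to 4. Control heart 4 was the lowest and control heart 3 the highest of all 8, so the doxorubicin values lay wholly inside the control range. The difference was -0.08 log2 (SE 0.16, limma adjusted p = 0.898; 95% interval -0.44 to 0.27), and it was 0.022 without control heart 3 and -0.25 without control heart 4.

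The 3 hearts with the highest Sod3 were control 3, control 2 and doxorubicin 4. The same 3 hearts had the highest summed intensity of the 4 smooth muscle markers (1642 in doxorubicin 4, 1724 in control 3 and 1492 in control 2), with 806 to 849 in the other doxorubicin hearts and 754 and 814 in the other control hearts. They also had the highest sums of the 4 fibroblast markers (10474 in doxorubicin 4, 10257 in control 3 and 9928 in control 2), of the 4 atrial markers (20375, 6143 and 10284 in the same order, against at most 5940 elsewhere) and of the 5 macrophage markers (636, 494 and 516, against at most 492). By these sums the 3 hearts were thus the 3 highest for 4 of the 8 marker lists, in differing order. Not every single marker followed the sums. Myl7 and Myl4 were lower in control 3 (10.23 and 9.16 log2) than in doxorubicin 1 (10.25 and 9.66 log2), and Nppa and Sln were higher. C1qa was lower in control 2 and control 3 (7.26 and 7.41 log2) than in doxorubicin 1 (7.53 log2), and Csf1r and Mrc1 were higher in both. Cd68 and Cd163 were lower in control 3 (5.18 and 5.03 log2) than in doxorubicin 1 (5.28 and 5.19 log2), and higher in control 2. No marker of these 4 lists passed between the groups, and their part in the Sod3 values was not tested. Atox1 and Ccs both carry copper within the cell, and Ccs loads it onto the Sod1 protein. Neither passed, with Atox1 at -0.17 log2 (SE 0.13, limma adjusted p = 0.650) and Ccs at 0.10 log2 (SE 0.06, limma adjusted p = 0.571).

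Catalase, the peroxisomal enzyme that splits hydrogen peroxide, varied least of all the members. Cat had log2 levels of 11.37, 11.35, 11.32 and 11.49 in doxorubicin hearts 1 to 4, against 11.27, 11.33, 11.35 and 11.30 in control hearts 1 to 4. Doxorubicin hearts 4 and 1 were above every control heart, and the other two lay within the control range. The difference of 0.07 log2 (SE 0.06, limma adjusted p = 0.708) had a 95% interval of -0.06 to 0.20, which reached at most a 1.15-fold rise, and the difference was 0.030 without doxorubicin heart 4. None of the 5 glutathione peroxidase genes on the same list passed, and Gpx1, the cytosolic and mitochondrial glutathione peroxidase, stood at -0.08 log2 (SE 0.05, limma adjusted p = 0.621).

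Among the peroxiredoxins the member measured was Prdx3, which removes peroxide in the mitochondrial matrix. Its log2 levels were 11.84, 11.72, 11.91 and 11.70 in doxorubicin hearts 1 to 4, against 11.97, 11.70, 11.82 and 11.77 in control hearts 1 to 4. Control heart 1 was again the highest, and the groups covered one another. The difference of -0.022 log2 (SE 0.08, limma adjusted p = 0.949; 95% interval -0.19 to 0.15) turned positive with a repeated quantile normalization (0.017).

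The other peroxiredoxin genes measured, Prdx2, Prdx4, Prdx5 and Prdx6, did not pass, and 1 gene of their list outside the family did. Of 9 genes measured on this list 1 fell and 8 did not pass, with a median of 0.018 log2. Sesn2, which encodes the stress protein sestrin 2, had log2 levels of 6.47, 6.74, 6.19 and 6.45 in doxorubicin hearts 1 to 4, against 6.97, 7.22, 6.89 and 7.16 in control hearts 1 to 4, with no overlap. It fell by 0.60 log2 (SE 0.12, limma adjusted p = 0.0293), while its second probe set, under the dim limit, stood at -0.05. The call was lost without doxorubicin heart 1, 3 or 4 or control heart 2 or 4 (-0.60, -0.51, -0.59, -0.55 and -0.57, limma adjusted p 0.0547 to 0.0907), and with the hybridization covariate (-0.77, limma adjusted p = 0.303). Srxn1, the sulfiredoxin that repairs overoxidized peroxiredoxin, stood at -0.46 log2 (SE 0.16, limma adjusted p = 0.216), with its other probe sets at -0.37 and -0.11.

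**Figure D2:**
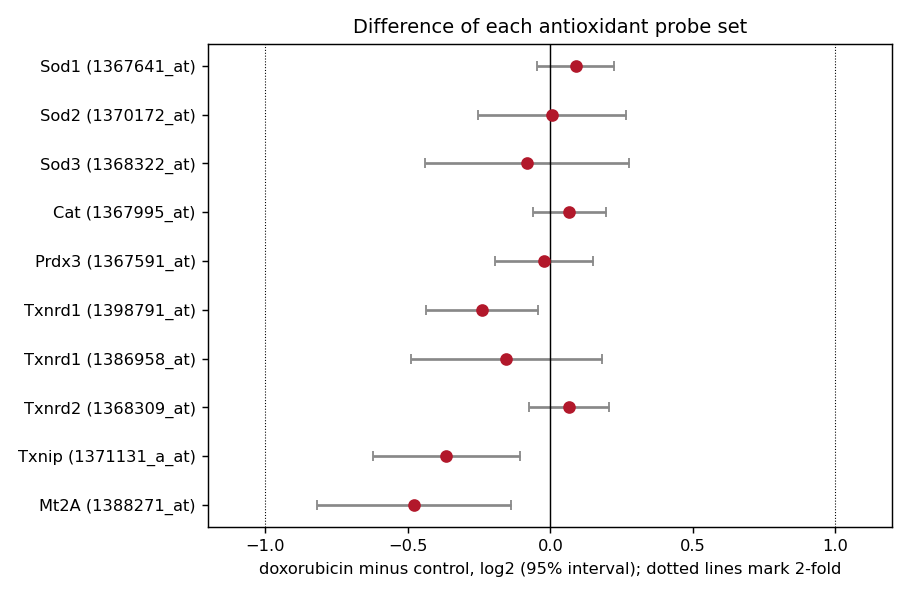
Difference of each of the 10 probe sets (doxorubicin minus control, log2, horizontal axis), with bars for the 95% confidence interval of the limma fit and dotted lines at a 2-fold change. All 10 intervals lie inside the dotted lines, and those of Txnip (-0.62 to -0.11), Mt2A (-0.82 to -0.14) and the brighter Txnrd1 probe set (-0.44 to -0.04) lie wholly below 0 before any adjustment for the number of probe sets.

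Of the 3 thioredoxin reductases measured, Txnrd1 stood below 0 and Txnrd2 and Txnrd3 above it, and none passed. Txnrd3, which is no member, was at 0.11 log2 (SE 0.08, limma adjusted p = 0.634). Txnrd1, the selenoenzyme of the cytosol, had log2 levels of 8.32, 8.10, 8.27 and 8.47 on its brighter probe set in doxorubicin hearts 1 to 4, against 8.68, 8.43, 8.49 and 8.51 in control hearts 1 to 4. Doxorubicin hearts 1, 2 and 3 were below every control heart, and doxorubicin heart 4 lay between control hearts 2 and 3. The difference was -0.24 log2 (SE 0.09, limma adjusted p = 0.252), or 1.18-fold lower, with a 95% interval that reached 1.35-fold.

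The second Txnrd1 probe set gave 8.34, 7.82, 8.35 and 8.28 log2 in doxorubicin hearts 1 to 4, against 8.70, 8.22, 8.37 and 8.12 in control hearts 1 to 4. On it doxorubicin heart 2 was the lowest and the remaining doxorubicin hearts lay inside the control range. Its difference was smaller (-0.16, SE 0.15, limma adjusted p = 0.751), and without doxorubicin heart 2 it was -0.03.

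Txnrd2, the reductase of the mitochondrion, had log2 levels of 8.82, 8.87, 8.79 and 8.67 in doxorubicin hearts 1 to 4, against 8.72, 8.73, 8.65 and 8.79 in control hearts 1 to 4. Doxorubicin hearts 1 and 2 were above all control hearts, and doxorubicin heart 4 was below 3 of them. The difference was 0.07 log2 (SE 0.06, limma adjusted p = 0.745; 95% interval -0.07 to 0.20). It was 0.038 without doxorubicin heart 2, 0.041 without control heart 3, 0.10 without doxorubicin heart 4 and 0.014 with the hybridization covariate. None of the 14 thioredoxin, reductase and glutaredoxin genes measured passed. Nxn, which encodes the thioredoxin-like protein nucleoredoxin, stood at 0.26 log2 (SE 0.09, limma adjusted p = 0.233) with groups that did not overlap, although its second probe set was near 0 (0.0014).

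Ordered by compartment, the 3 mitochondrial members (Sod2, Prdx3 and Txnrd2) ranged from -0.022 to 0.07 log2, peroxisomal Cat was at 0.07 and extracellular Sod3 at -0.08. The cytosolic members Txnrd1 and Sod1 ranged from -0.24 to 0.09, and Txnip and Mt2A, which are found in cytosol and nucleus, were at -0.37 and -0.48. With 1 to 3 genes in each, the compartments were not compared by a test.

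Txnip, the arrestin-like protein that inhibits thioredoxin, stood lower in doxorubicin hearts without passing. Its log2 levels were 9.58, 9.38, 9.23 and 9.48 in doxorubicin hearts 1 to 4, against 9.87, 9.92, 9.89 and 9.45 in control hearts 1 to 4. Control hearts 1 to 3 were tightly placed above every doxorubicin heart, and control heart 4 stood apart, within the doxorubicin range. The difference was -0.37 log2 (SE 0.12, limma adjusted p = 0.176), or 1.29-fold lower, with a 95% interval of -0.62 to -0.11 that reached 1.54-fold lower. Without control heart 4 Txnip passed (-0.47, limma adjusted p = 0.0363), the one alternative of 18 in which any member did. When the hybridization control level was added to the fit as a covariate, the difference was -0.18 (limma adjusted p = 0.955).

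A close relative of Txnip among the alpha-arrestins did change. Arrdc4, which like Txnip is known to be switched on by the glucose-sensing factors MondoA (Mlxip) and ChREBP (Mlxipl) with their partner Mlx, had log2 levels of 6.91, 6.79, 6.11 and 6.24 in doxorubicin hearts 1 to 4. In control hearts 1 to 4 it had 8.40, 7.72, 8.32 and 8.15, and the groups did not overlap. Arrdc4 fell by 1.64 log2, or 3.11-fold (SE 0.20, limma adjusted p = 0.00264). It passed with any one of the 8 hearts left out, and not with the hybridization covariate (-1.19, limma adjusted p = 0.309).

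Of the 11 genes measured for arrestin relatives and glucose sensing 1 fell, none rose (1 was higher before adjustment) and 10 missed the threshold, for a median of -0.12 log2. Mlx stood at 0.20 log2 (SE 0.06, limma adjusted p = 0.156), higher in 4 of 4 doxorubicin hearts than in any control heart, and its second probe set was at 0.14.

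Mt2A had the largest difference among the members and did not pass. Its log2 levels were 6.89, 6.77, 7.17 and 7.44 in doxorubicin hearts 1 to 4, against 7.84, 7.46, 7.56 and 7.34 in control hearts 1 to 4. Doxorubicin hearts 1 to 3 lay below every control heart, and doxorubicin heart 4 lay just above control heart 4. The difference was -0.48 log2 (SE 0.15, limma adjusted p = 0.176), or 1.39-fold lower, with a 95% interval of -0.82 to -0.14 that reached 1.77-fold lower. It was -0.60 without doxorubicin heart 4 (limma adjusted p = 0.0741). That heart also had the highest summed intensity of the atrial markers (20375, against 1441 to 5940 in the other doxorubicin hearts) and of the 5 adipocyte markers (3299, against 1436 to 1827). By summed intensity it was the highest of its group for smooth muscle (1642, against 806 to 849), fibroblast (10474, against 8256 to 8684), macrophage (636, against 440 to 492) and red cell markers (292, against 195 to 236) as well. The red cell markers disagreed in that heart, where Hbb was highest (7.80 log2) and Slc4a1 lowest (5.66 log2) of all hearts. The part of these tissues and cells in its Mt2A level was not tested. Metallothionein genes are close copies of each other, so a probe set for one may also read another.

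Metallothionein genes are switched on by the zinc sensor MTF-1 through metal response elements. The 250 bases before the RefSeq start of Mt2A are printed with those of its neighbour Mt1 to show how many copies of this element each carries. Both are on the minus strand of chromosome 19 in GRCr8, Mt2A at chr19:10838709-10838958 and Mt1 at chr19:10832976-10833225, read 5′ to 3′. Capitals mark each match to the element's core, TGCGCNC or TGCACNC on either strand.
Mt2A: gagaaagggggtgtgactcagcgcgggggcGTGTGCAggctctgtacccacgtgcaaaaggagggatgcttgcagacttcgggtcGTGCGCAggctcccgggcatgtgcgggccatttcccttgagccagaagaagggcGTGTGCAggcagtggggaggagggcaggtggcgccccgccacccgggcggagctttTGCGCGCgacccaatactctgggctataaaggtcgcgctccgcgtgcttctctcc
Mt1: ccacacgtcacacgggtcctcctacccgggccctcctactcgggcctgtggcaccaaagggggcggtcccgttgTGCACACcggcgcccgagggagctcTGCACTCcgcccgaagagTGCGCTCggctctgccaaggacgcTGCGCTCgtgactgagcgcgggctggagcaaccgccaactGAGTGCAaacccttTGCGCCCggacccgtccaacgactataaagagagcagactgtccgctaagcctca

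Mt2A held 4 such cores and Mt1 6, none overlapping another. Over all 33469 RefSeq promoter windows of 300 bases, 24.2% held at least 1 core and 0.439% held 4 or more. None of the other 7 members with a window in the RefSeq table (Sod1, Sod2, Cat, Prdx1, Prdx3, Txnrd1 and Txnrd2) held one. The core of the antioxidant response element, which NRF2 binds with a small MAF partner (TGACNNNGC on either strand), was found once each in the windows of Mt2A, Sod2 and Prdx1 and in 1 of the 2 Txnrd1 windows. It was found in 12.1% of all windows, and in Mt2A and Mt1 it did not overlap a metal response core.

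Mt1 itself was dim on the array, at 4.53, 4.33, 4.50 and 4.43 log2 in doxorubicin hearts 1 to 4, against 4.45, 4.40, 4.62 and 4.37 in control hearts 1 to 4. These values are close to the dim limit, and the difference was -0.014 (SE 0.07, limma adjusted p = 0.969). None of the 9 metallothionein and zinc genes measured passed, with a median of -0.017 log2. The zinc importer gene Slc39a10 stood at -0.35 (SE 0.15, limma adjusted p = 0.320), and at -0.051 with the hybridization covariate.

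The regulators of this defence included 1 gene that fell. Mafk, a small MAF protein that pairs with NRF2 or with its competitor BACH1, had log2 levels of 8.0, 7.60, 7.61 and 7.69 in doxorubicin hearts 1 to 4, against 9.06, 8.65, 8.76 and 8.54 in control hearts 1 to 4. The groups did not overlap. Mafk fell by 1.03 log2, or 2.04-fold (SE 0.12, limma adjusted p = 0.00228), and passed with any one heart left out but not with the hybridization covariate (-0.85, limma adjusted p = 0.270).

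Nfe2l2, which encodes NRF2 itself, had 8.83, 8.94, 8.86 and 9.04 log2 in doxorubicin hearts 1 to 4, against 9.12, 9.22, 9.15 and 9.17 in control hearts 1 to 4. Every doxorubicin heart was below every control heart, but the difference of -0.25 (SE 0.06) did not pass (limma adjusted p = 0.0831). Maff (-0.64, SE 0.19, limma adjusted p = 0.141) and Foxo3 (-0.46, SE 0.12, limma adjusted p = 0.101) were also lower without overlap and did not pass. Of all genes 10.4% had groups that did not overlap. Sirt3 stood higher, at 0.18 (SE 0.07, limma adjusted p = 0.329), with groups that overlapped. Of the 13 regulators measured 12 did not pass, and the median was -0.025 log2, with 6 genes above 0 and 7 below.

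Since glucocorticoids are known inducers of metallothionein, genes responsive to them were read as well. Of 6 measured Sgk1 alone passed, a kinase gene that is also induced by serum and osmotic stress. It had log2 levels of 8.30, 8.01, 8.11 and 8.32 in doxorubicin hearts 1 to 4, against 9.51, 9.01, 8.99 and 9.41 in control hearts 1 to 4, without overlap. Sgk1 fell by 1.04 log2, or 2.06-fold (SE 0.13, limma adjusted p = 0.00265), passed with any one heart left out, and did not pass with the hybridization covariate (-1.19, limma adjusted p = 0.116). Errfi1 stood at -0.52 (SE 0.17, limma adjusted p = 0.183). Klf9 stood at 0.21 (SE 0.07, limma adjusted p = 0.221), higher in every doxorubicin heart than in any control heart, with its other probe sets at -0.09 and 0.0092. Tsc22d3 stood at 0.04, and the list median was -0.13 log2, with 2 of 6 genes above 0 and 4 below.

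Genes for enzymes that make superoxide or peroxide, and for proteins that partner or regulate such enzymes, did not pass, 12 of 12 measured. Their median was 0.08 log2, and 3 of them were higher at an unadjusted p under 0.05. Rac2, the small GTPase that switches on the phagocyte NADPH oxidase, was higher in all 4 doxorubicin hearts (6.96, 7.40, 6.94 and 7.04 log2) than in any control heart (6.75, 6.74, 6.65 and 6.55 log2). Its difference was 0.41 (SE 0.10, limma adjusted p = 0.0832). Cybb, the catalytic subunit of that oxidase, stood at 0.23 (SE 0.10, limma adjusted p = 0.337), at 0.14 without control heart 4 and at 0.40 with the hybridization covariate. The second Cybb probe set was at 0.19 (SE 0.13, limma adjusted p = 0.623). Ncf1 had the largest difference on the list, at 0.51 (SE 0.22, limma adjusted p = 0.349). Its highest level was 7.67 log2 in doxorubicin heart 3, against 6.96, 6.52 and 6.64 in doxorubicin hearts 1, 2 and 4. Control hearts 1 to 4 had 6.56, 6.24, 6.35 and 6.625 log2, so the groups overlapped. Rac2 and Cybb are expressed mainly in blood-derived cells, and the summed intensity of 5 macrophage markers was 440 to 636 in doxorubicin and 371 to 516 in control hearts. No macrophage marker passed, but all 5 stood above 0, with a median of 0.17 log2. The part of macrophages in the Rac2 and Cybb values was not tested.

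**Figure D3:**
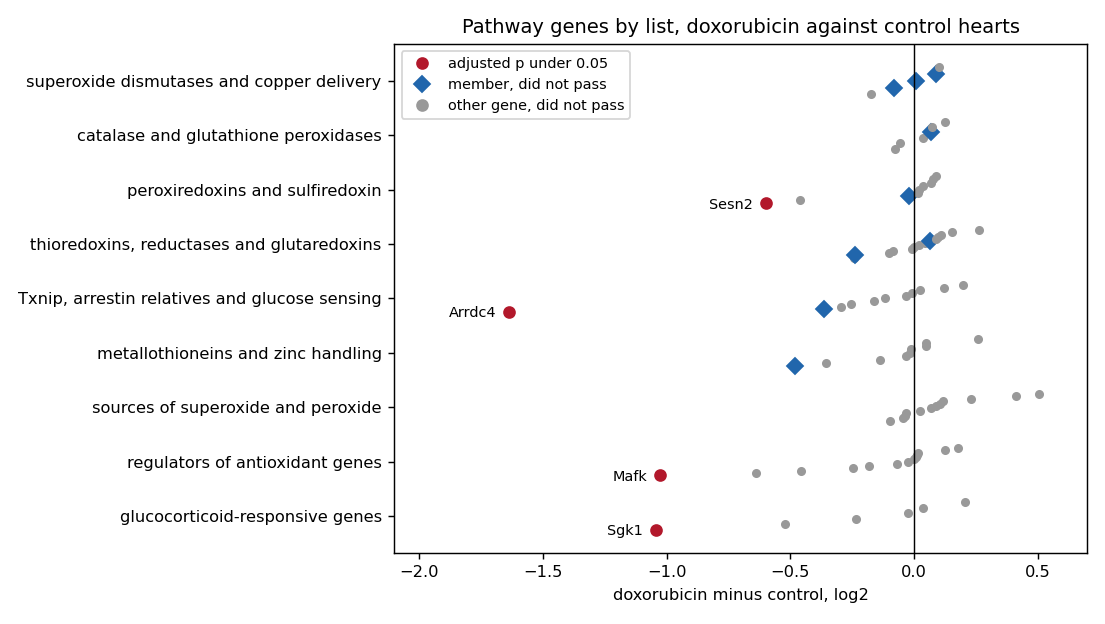
Difference of every measured gene on the 9 pathway lists (doxorubicin minus control, log2, brightest probe set of each gene). Diamonds are the members, none of which passed, and labelled red points are the 4 genes that passed, which all stood lower.

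Across the 9 lists, 76 of 79 genes other than the members were measured, and 4 of them fell, none rose and 72 missed the threshold. For all 14217 genes, 2.97% passed, 2.17% lower and 0.802% higher. At an unadjusted p under 0.05, 10 of the 76 were lower and 7 higher, and of all genes 16.7% had such a p, 7.07% lower and 9.67% higher. Groups that did not overlap, as for Sesn2, were found for 10.4% of all genes. The median difference of the 76 was 0.0040 log2 and their median absolute difference 0.093. The called genes of these lists were a stress protein, an arrestin, a transcription factor and a kinase. No enzyme that removes superoxide or peroxide was among them, which for so few enzyme genes is near the 2.97% of all genes.

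Some hearts were the highest or lowest of their group on several member probe sets. The largest such counts follow, and shared variation between members was not tested. Doxorubicin heart 2 was the lowest of its group on 6 of the 10 probe sets (Sod1, Sod2, Sod3, Mt2A and both for Txnrd1), and 23.5% of all probe sets were lowest in that heart. Among controls, heart 1 was the highest on 6 of the 10 (Sod1, Sod2, Prdx3, Mt2A and both for Txnrd1), against 29.5% of all probe sets. Control heart 4 was the lowest on 5 of the 10, against 20.6%. The pooled SD within groups ran from 0.059 log2 for Cat to 0.27 for Sod3.

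For the 2 members with the smallest unadjusted p, Txnip and Mt2A, the genes with the most similar values over the 8 hearts were sought among 12200 others above the dim limit. The Pearson correlation includes the difference between the groups and describes these 8 arrays only. For Txnip the most similar were Cebpd (r = 0.96), which encodes a transcription factor, Cxhxorf38 (r = 0.95), Ctnnd1 (r = 0.94), which encodes the junction protein p120 catenin, and Lrrfip1 (r = 0.94). For Mt2A they were Pdlim3 (r = 0.96), which encodes a Z-disc protein, Mtarc1 (r = 0.93), the fellow member Txnrd1 (r = 0.93) and Slc13a5 (r = 0.92), a citrate transporter gene. None of these 8 passed between the groups, and the lowest limma adjusted p among them was 0.0779, for Lrrfip1 (-0.44 log2, SE 0.11).

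**Figure D4:**
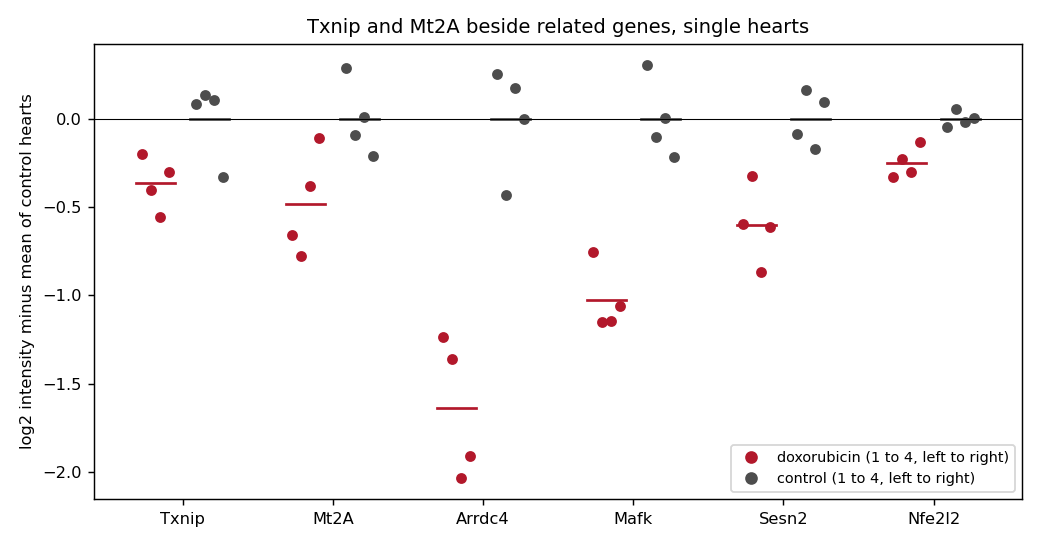
Log2 intensity minus the mean of the control hearts for Txnip, Mt2A, Arrdc4, Mafk, Sesn2 and Nfe2l2 in single hearts, doxorubicin in red on the left and control in grey on the right, with horizontal bars for the group means. The groups overlap for Txnip and Mt2A and are apart for the other genes shown, most widely for Arrdc4 (-1.64 log2).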

How the data were processed

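RNA of 8 perfused rat hearts was measured on 1 Affymetrix array each, 4 doxorubicin and 4 control. The authors deposited 1 intensity per probe set and array, computed with RMA per the submitters' processing notes. The program, its version and the probe set definitions were not given in the sources used here. Since RMA equalizes the arrays' distributions, a shift of most transcripts together is invisible here. The deposited intensity values were linear (array medians 29.9 to 31.0), so log2 was taken with no offset. Of 31099 probe sets 57 AFFX controls were left out. Symbols came from the platform annotation, updated by gene ID through the RefSeq table of GRCr8: 20826 probe sets had 1 symbol (20758 of them matched), 436 several and 9780 none.

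Groups were compared with limma 3.58.1 in R 4.3.3 (lmFit, eBayes, two-sided, no covariate), with Benjamini-Hochberg adjustment over 31042 probe sets, and the script was tested on simulated data. Intervals are unadjusted 95% intervals of that fit. Each gene is represented by its brightest probe set on average. Other probe sets are given for the members, the genes named from the lists by p and Klf9. Named were all members, the called genes of each list or its 2 smallest p, and the 4 genes most similar to 2 members. Mt1, Tie1 and other single markers, Klf9, Tsc22d3 and Txnrd3 were added once the values were known. So were Atox1, Maff, Foxo3, Sirt3, Ncf1 and other probe sets of named genes. The members and lists were chosen with earlier results of these data known. Where nothing more than "biological replicate" is stated, p-values measure the spread between these hearts. The number of arrays limits the precision. Alternatives were median centring, a repeated quantile normalization, 2 variance models, array weights, leaving out dim probe sets, 2 treatments of the probe sets of a gene, the hybridization control level as a covariate, the replicate block and leaving out each heart. Plots were made in matplotlib 3.10.9 under Python 3.11.15.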

Additional observations from a re-analysis of the deposited data

Results flagged for a closer look

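In 4 of 48 groups of 4 hearts (24 probe sets), 1 heart stood apart from the other 3 by more than Dixon's 95% limit, which chance exceeds in about 1 group in 20. Sod1 was 12.07 log2 in doxorubicin heart 2, against 12.15 to 12.16 in the other doxorubicin hearts. The second Txnrd1 probe set was 7.82 log2 in the same heart, against 8.28 to 8.35. Txnip was 9.45 log2 in control heart 4, against 9.87 to 9.92 in the other control hearts. Nxn was 5.78 log2 in doxorubicin heart 3, against 5.41 to 5.46 in the others of its group.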

How the results depend on the processing

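The count of members that passed was 0 under every alternative except 1 without control heart 4 (Txnip), so 0 to 1 when single hearts were left out. Probe sets called were 687 with all hearts and 397 to 854 without 1 heart (397, 452, 435 and 444 without doxorubicin hearts 1, 2 and 3 and control heart 3), and genes called 422 and 248 to 512 (248, 278, 262 and 267 without the same hearts). With the level of the hybridization controls as a covariate 92 probe sets and 60 genes were called; that level differs between the groups, so it cannot be told apart from the drug. Under that covariate Sod3 was 0.27, Prdx3 0.025 and Ccs -0.034 log2, with signs opposite to those reported, and Prdx3 was 0.017 with a repeated quantile normalization and 0.00025 with median centring. Without single hearts Sod2 ranged from -0.054 to 0.10, Sod3 from -0.25 to 0.022 and Prdx3 from -0.062 to 0.031. Other members kept their sign under all alternatives, with Mt2A at -0.60 to -0.38 and Txnip at -0.47 to -0.18. The cause of these shifts was not tested. The replicate numbers did not pair the hearts (correlations of same-numbered deviations 0.059, -0.038, -0.030 and -0.18). With the replicate block 511 probe sets, 305 genes and 0 members were called, and Srxn1 passed (-0.46, limma adjusted p = 0.0256). With 4 hearts a group, the member whose 95% interval reached furthest from 0 was Mt2A, at 1.77-fold lower.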
